A study of Mus musculus with 4 samples.

Results

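Ankrd1 encodes a muscle ankyrin repeat protein that binds titin in the sarcomere and also acts in the nucleus, and its transcript is widely used as a readout of YAP and TAZ activity. It was examined in cardiac fibroblasts together with 9 other genes of the YAP/TEAD pathway, which were Amotl2, Axl, Ajuba, Lats2, Yap1, Wwtr1, Tead1, Tead3 and Vgll3. The 10 genes were taken by symbol from the 55359 genes listed in the deposited count table, and all 10 passed the filter on low counts that left 15029 genes to test. The cells were primary cardiac fibroblasts, which make the extracellular matrix of the heart, from newborn wild-type mice (P1-P3). One group overexpressed Nr4a3, a nuclear receptor with no known ligand (OENr4a3, 2 libraries), and the other carried an overexpression control (OECtrl, 2 libraries). The series' stated question was how raised Nr4a3 blocks the conversion of fibroblasts into induced cardiomyocytes. The time of harvest is not settled, because the titles say day 10 where the series design says day 7 of reprogramming. No vector, promoter or make-up of the control is stated in these sources.

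In the Hippo pathway, MST and LATS kinases phosphorylate the coactivators YAP1 and TAZ (the product of Wwtr1) and keep them out of the nucleus. Unphosphorylated YAP1 and TAZ bind TEAD transcription factors, which are the DNA-binding partners, and switch on targets such as Ankrd1, Ccn1 and Ccn2. The pathway responds to cell density, matrix stiffness and actin tension, and in cardiac fibroblasts it is known for its part in activation toward the matrix-secreting, contractile state. Part of its output feeds back, since Lats2 and Amotl2 are both targets and restraints of YAP.

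The transcript of Nr4a3 itself matched the labels, at 175.4 and 177.8 CPM (reads scaled to library size, with edgeR's TMM factors) in the OENr4a3 libraries and 2.49 and 1.85 CPM in the OECtrl libraries, an 81.7-fold difference. The libraries held 18441428 and 18287644 counts in OENr4a3, against 14275501 and 16461333 in OECtrl. A gene with 0 reads could therefore stand at up to 0.165 to 0.208 CPM (a floor of 3 reads, which covers counting error only). Separate cultures are nowhere stated for the replicates, and the p-values then rest on a spread between libraries that may be technical. Of the tested genes 23.0% were called at an adjusted p under 0.05 (edgeR's quasi-likelihood test with Benjamini-Hochberg adjustment over all tested genes, which gave every adjusted p printed for a gene unless another setting is named). Longer genes tended to be higher in OENr4a3. With the genes split by exonic length into 4 equal groups, the median log2 fold change was -0.32 in the shortest (median length 1482 bases) and 0.25 in the longest (8853 bases), where 28.6% of genes rose. Spearman's rho of log2 fold change with exonic length was 0.42 across genes, which are not independent replicates. For each library's deviation from the gene's mean log2 CPM, rho with length was 0.36 and 0.38 in OENr4a3 and -0.20 and -0.45 in OECtrl. The trend thus also differed between the OECtrl libraries. Values with this trend removed from each library are given beside the main results.

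Of the 10 genes, 1 rose in OENr4a3 (Tead1), 1 fell (Ankrd1) and 8 were not called, with a median log2 fold change of 0.08. Over all tested genes 12.0% rose and 11.0% fell, with a median of -0.01, so the 2 of 10 called stood near the background. The libraries of the groups did not overlap for 6 of the 10 genes, 4 with OENr4a3 above OECtrl and 2 below it, against 5115 above and 5142 below among all 15029 tested genes. With the length trend removed, none of the 10 rose and Ankrd1 was the 1 that fell, and the median was -0.03. Amotl2 (-0.03), Axl (-0.04), Lats2 (-0.02), Yap1 (-0.18) and Vgll3 (-0.14) then stood below 0, although each was above 0 as counted. Ajuba (-0.20), Wwtr1 (0.09) and Tead3 (0.05) kept their sign. Of all tested genes 10.1% rose and 10.2% fell in that fit.

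**Figure D1:**
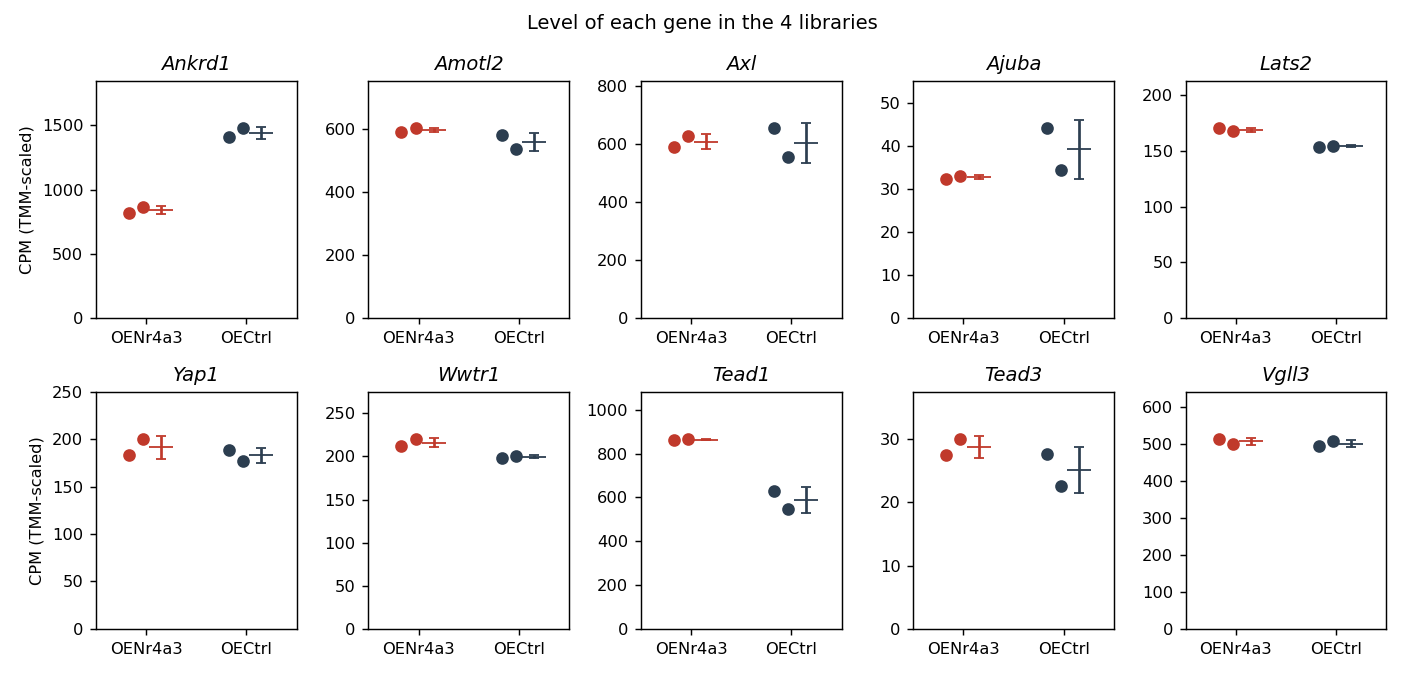
Level of each of the 10 genes, in TMM-scaled CPM on a linear axis from 0, in the 2 OENr4a3 libraries (red) and the 2 OECtrl libraries (dark). Points are libraries, and the bar beside them is the mean with the SD of 2 libraries. Ankrd1 is lower in both OENr4a3 libraries (818.0 and 863.4 CPM) than in either OECtrl library (1406 and 1475 CPM), and Tead1 is higher (862.3 and 866.2 against 631.6 and 548.4 CPM).

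The DNA letters that TEAD factors bind were searched for in the promoter windows of these genes, because TEAD binding is what the pathway's targets are known to share. A window ran from 250 bases before to 50 bases after a RefSeq transcript start (GRCm38.p6), and the motif was GGAATG on either strand (CATTCC on the other). All 9 members with a window held it in at least 1 window, at 14 sites in all, and 11 of their 13 windows did. Of all 32851 windows 14.7% held it, as did 12.3% of the windows of genes that rose and 12.3% of those of genes that fell. The members were chosen as genes of this pathway, so their share is a description with no test, and a match is a run of letters, not a site shown to be bound. Ankrd1, on the minus strand of chromosome 19 (GENCODE M21 gene at chr19:36111961-36120099), held it at 210 and 123 bases before its RefSeq start. The M21 gene model begins further upstream, so this window lies within its span. The 30 bases around each match are shown for Ankrd1 and for 3 other targets whose transcripts did not all behave like it. They are read on the strand where the motif reads GGAATG, which is in capitals.
Ankrd1, distal match (chr19:36120037-36120066, minus strand): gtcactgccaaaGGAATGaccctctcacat
Ankrd1, proximal match (chr19:36119950-36119979, minus strand): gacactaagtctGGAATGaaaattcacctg
Ccn1, 103 bases before the start (chr3:145650071-145650100, plus strand): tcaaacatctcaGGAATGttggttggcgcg
Amotl2, 65 bases before the start (chr9:102717727-102717756, minus strand): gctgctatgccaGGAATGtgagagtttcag
Axl, 233 bases before the start (chr7:25788949-25788978, minus strand): ggaaattctacaGGAATGtttaccagaccc

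The element that NR4A receptors bind as monomers was searched for in the same windows as AAAGGTCA on either strand (TGACCTTT on the other). Ajuba was the 1 member of the 9 with a window that held it, 72 bases before its start, in 1 of the 13 windows of the members. Of all windows 1.51% held it, as did 1.0% of the windows of tested genes. The share was 1.35% for genes that fell and 0.865% for genes that rose. Ajuba was not called, and binding of Nr4a3 at this match was not tested. The match is shown with the element in capitals, because Nr4a3 is the overexpressed factor.
Ajuba (chr14:54577715-54577744, plus strand): gacaggacgtaAAAGGTCAaggggcagatt

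Ankrd1 was among the most abundant transcripts of the fibroblasts, at rank 77 of 15029 tested genes by mean CPM. It stood at 818.0 and 863.4 CPM (14850 and 15519 reads) in OENr4a3, against 1406 and 1475 CPM (20321 and 24663 reads) in OECtrl. Both OENr4a3 libraries lay under both OECtrl libraries, and the gap between the groups exceeded the spread within either. The means were 840.7 ± 32.1 CPM in OENr4a3 and 1441 ± 49.0 CPM in OECtrl (SD, n = 2 each), and the transcript fell by 41.7% (log2 fold change -0.78 ± 0.0880 SE, adjusted p = 0.000717). The call was kept under all 14 other settings tried, with log2 fold changes of -0.82 to -0.65 and a highest adjusted p of 0.0102. Ankrd1 is short (2886 exonic bases), and with the length trend removed it still fell (-0.65, adjusted p = 0.000167). In bulk RNA, fewer cells of a type and less RNA per cell cannot be told apart.

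Ratios within a library do not depend on how libraries are scaled, and Ankrd1 was set against other pathway targets in this way. The ratios still carry the length trend. Amotl2 (6289 exonic bases), Axl (5033) and Lats2 (6971) are longer than Ankrd1 (2886), whereas Ccn2 (2861) and Ccn1 (2019) are not. There were 1.38 and 1.44 Ankrd1 reads per Amotl2 read in OENr4a3 and 2.43 and 2.75 in OECtrl. Against Axl, the ratios were 1.39 and 1.38 in OENr4a3 and 2.15 and 2.65 in OECtrl. Against Lats2, they were 4.81 and 5.15 in OENr4a3 and 9.17 and 9.54 in OECtrl. The difference was smaller against the 2 targets that themselves fell, which follows from their own fold changes. Per Ccn2 read there were 0.396 and 0.427 Ankrd1 reads in OENr4a3 and 0.551 and 0.510 in OECtrl, and per Ccn1 read 0.982 and 1.11 in OENr4a3 and 1.32 and 1.30 in OECtrl. In each of these ratios both OENr4a3 libraries lay under both OECtrl libraries, and the two-sided exact permutation p was 0.333, the smallest that 2 against 2 allows.

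Ankrd1 is also a gene of heart muscle, so markers of cardiomyocytes and of other cells of the heart were measured beside it. Cardiomyocyte markers summed to 264 and 291 CPM in OENr4a3 and 454 and 500 CPM in OECtrl, nearly all of it Tnnt2, cardiac troponin T, which fell to 267.0 ± 23.8 CPM in OENr4a3, against 471.3 ± 33.5 CPM in OECtrl. Of the 10 listed cardiomyocyte genes 4 could be tested, 1 of which fell (Tnnt2) and 1 of which rose (Myh6, a cardiac myosin heavy chain, with 99 and 53 reads in OENr4a3 and 19 and 1 in OECtrl). Myh7, another cardiac myosin, had 5 and 2 reads in OENr4a3 and 0 in both OECtrl libraries. Only Tnnt2 of the listed cardiomyocyte markers thus stood high, in both groups. The rest reached at most 5.45 CPM in a library, that of Myh6 in OENr4a3 replicate 1. Myh6 stood at 5.45 and 2.95 CPM in OENr4a3 and 1.31 and 0.0598 CPM in OECtrl, opposite in direction to Tnnt2. Mesothelial markers, of the cells that cover the heart, summed to 475 and 442 CPM in OENr4a3 and 987 and 1056 CPM in OECtrl, and 6 of 9 fell. Smooth muscle markers summed to 1895 and 1959 CPM in OENr4a3 and 2609 and 2729 CPM in OECtrl, and 3 of 6 fell, among them Acta2 and Tagln, which activated fibroblasts also make. Macrophage markers summed to 618 and 598 CPM in OENr4a3 and 932 and 916 CPM in OECtrl, with 3 of 6 fallen. Hepatocyte markers summed to 0.716 and 0.890 CPM in OENr4a3 and 49.1 and 36.4 CPM in OECtrl, all 6 fell, and Apoa1 and Ttr had 0 reads in both OENr4a3 libraries. Endothelial markers summed to 33.8 and 39.9 CPM in OENr4a3 and 43.3 CPM in each OECtrl library, with 1 of 6 fallen. The 10 fibroblast markers, all detected in every library, summed to 19167 and 19296 CPM in OENr4a3 and 18950 and 17998 CPM in OECtrl, with 3 risen and 3 fallen. Beside these counts stand the 12.0% of all tested genes that rose and the 11.0% that fell. With the length trend removed, 10.1% of all tested genes rose and 10.2% fell. In that fit 7 of 9 mesothelial and 5 of 6 hepatocyte markers fell (Afp lost its call, adjusted p = 0.0526). The smooth muscle and endothelial markers that fell were the same. Again 3 macrophage markers fell, with Ptprc called in place of C1qa (adjusted p = 0.363). Of the fibroblast markers 2 then rose (Pdgfra and Ddr2) and 4 fell (Col1a2 at -0.56, Col3a1, Dcn and Thy1), while Col1a1, Tcf21 and Lum lost their calls. The part of these other cell types in the level of Ankrd1 was not tested.

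The 3 genes whose log2 CPM, centred on the mean of the 4 libraries, lay closest to that of Ankrd1 were Pdpn, Sdc4 and Tnnt2. They came out of 4204 tested genes with a mean of at least 50 CPM, after genes with provisional names (such as Gm or Rik) were left out. Pdpn encodes podoplanin, a membrane glycoprotein, and stood at 110 and 112 CPM in OENr4a3 and 192 and 207 CPM in OECtrl. Sdc4, the heparan sulfate proteoglycan syndecan-4, stood at 113 and 111 CPM in OENr4a3 and 190 and 206 CPM in OECtrl. Their Euclidean distances to Ankrd1 were 0.084 and 0.091 on the log2 scale, and that of Tnnt2 was 0.10. With 4 libraries in 2 groups such a distance mostly reflects the group difference and is given as a description.

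The coactivators were not called. Yap1, the YAP protein, stood at 183.1 and 200.0 CPM in OENr4a3 and 188.5 and 177.1 CPM in OECtrl, and the groups overlapped (log2 fold change 0.07, 95% interval -0.16 to 0.29, adjusted p = 0.653). Wwtr1, which encodes TAZ, stood at 212.2 and 220.0 CPM in OENr4a3 and 198.6 and 200.7 CPM in OECtrl. For Wwtr1 both OENr4a3 libraries lay above both OECtrl libraries, but the difference did not pass the test (0.11, -0.10 to 0.33, adjusted p = 0.397). These intervals leave room for modest change in either direction and do not show equal levels. Per kilobase of exon, Yap1 held 0.445 and 0.469 of the level of Wwtr1 in OENr4a3 and 0.490 and 0.456 in OECtrl, with overlap between the groups. That ratio still carries the length trend (9257 exonic bases for Yap1 and 4779 for Wwtr1). With the trend removed, Yap1 stood at -0.18 and Wwtr1 at 0.09, neither called. The transcript Gm20416 shares 116 exonic bases with Yap1 on the opposite strand, and no source says whether counting used the strand, so their reads cannot be told apart.

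Tead1, a TEAD factor, was higher in OENr4a3 at 862.3 and 866.2 CPM, against 631.6 and 548.4 CPM in OECtrl. The libraries of OENr4a3 agreed closely, those of OECtrl spread more, and the groups did not overlap. Means were 864.3 ± 2.74 CPM in OENr4a3 and 590.0 ± 58.9 CPM in OECtrl (SD, n = 2 each), a 1.46-fold rise (log2 fold change 0.55 ± 0.0986 SE, adjusted p = 0.00671). Tead1 is the longest of the 10 genes at 13570 exonic bases, and with the length trend removed its log2 fold change was 0.18 (95% interval 0.02 to 0.33) and the call was lost (adjusted p = 0.110). It was also lost without OENr4a3 replicate 1 (0.56, adjusted p = 0.0681) and without OENr4a3 replicate 2 (0.56, adjusted p = 0.0741). Tead3, a related TEAD factor, stood at 27.4 and 29.9 CPM in OENr4a3 and 27.6 and 22.6 CPM in OECtrl, so the groups overlapped (0.20, -0.12 to 0.51, adjusted p = 0.325). Its call changed without OECtrl replicate 1, where it rose (0.35, adjusted p = 0.0266). Per kilobase of exon, Tead1 was 15.6 and 14.3 times the level of Tead3 in OENr4a3 and 11.3 and 12.0 times in OECtrl. That ratio still carries the length trend, since Tead3 has 6714 exonic bases. With the trend removed, Tead1 stood at 0.18 and Tead3 at 0.05, neither called.

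Vgll3 encodes a vestigial-like cofactor that binds TEAD factors. It stood at 513.8 and 501.7 CPM in OENr4a3 and 494.9 and 508.2 CPM in OECtrl, and the groups overlapped (0.02, -0.18 to 0.22, adjusted p = 0.904). Of the 10 listed coactivators, TEADs and VGLL cofactors 8 could be tested, and Tead1 alone was called, beside 23.0% of all tested genes. Outside the members, Tead2 averaged 27.5 CPM in OENr4a3 and 26.9 CPM in OECtrl, and Tead4 averaged 1.80 CPM in OENr4a3 and 2.08 CPM in OECtrl. Vgll4 stood at 27.7 and 27.3 CPM in OENr4a3 and 24.9 and 17.2 CPM in OECtrl (0.39, adjusted p = 0.122). Vgll1 and Vgll2 had at most 1 read in any library.

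The members that regulate YAP through the LATS kinases or by holding it at junctions were not called either. With the length trend removed, Lats2 stood at -0.02, Amotl2 at -0.03 and Ajuba at -0.20, none of them called. Lats2, a kinase that phosphorylates YAP1 and TAZ, stood at 170.0 and 167.6 CPM in OENr4a3 and 153.3 and 154.7 CPM in OECtrl, without overlap (0.13, 95% interval -0.08 to 0.35, adjusted p = 0.330). It shares 2955 exonic bases with the predicted gene Gm49361 on the same strand, so its count is uncertain. Amotl2, an angiomotin-family scaffold that holds YAP at cell junctions, stood at 590.9 and 600.5 CPM in OENr4a3 and 578.5 and 536.9 CPM in OECtrl. Both OENr4a3 libraries lay above both OECtrl libraries, but the nearest libraries of the groups were closer than the OECtrl libraries were to each other (0.10, -0.11 to 0.30, adjusted p = 0.467), and without OECtrl replicate 1 it rose (0.15, adjusted p = 0.0230). Ajuba, a LIM-domain protein that binds and inhibits LATS kinases, stood at 32.3 and 33.0 CPM in OENr4a3 and 44.0 and 34.3 CPM in OECtrl. Both OENr4a3 libraries lay below both OECtrl libraries, which were far apart from each other, and it was not called (-0.26, -0.57 to 0.05, adjusted p = 0.196) except without OECtrl replicate 2, where it fell (-0.43, adjusted p = 0.00565).

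Axl, a receptor tyrosine kinase of the TAM family and a YAP target, stood at 589.8 and 625.7 CPM in OENr4a3 and 653.3 and 556.1 CPM in OECtrl. The OENr4a3 values lay between those of OECtrl (log2 fold change 0.01, 95% interval -0.23 to 0.24, adjusted p = 0.969). Of the 5 TAM receptors and ligands 1 rose, beside 12.0% of all tested genes. The gene was the ligand Pros1 (protein S), at 158 and 156 CPM in OENr4a3 and 127 and 128 CPM in OECtrl (0.30, adjusted p = 0.0473). This call was lost under 7 of 14 other settings. The other ligand, Gas6, averaged 954.0 CPM in OENr4a3 and 803.8 CPM in OECtrl (0.25, adjusted p = 0.0702), and it passed with the length trend removed (0.41, adjusted p = 0.00561). The receptors Tyro3 and Mertk were not called.

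**Figure D2:**
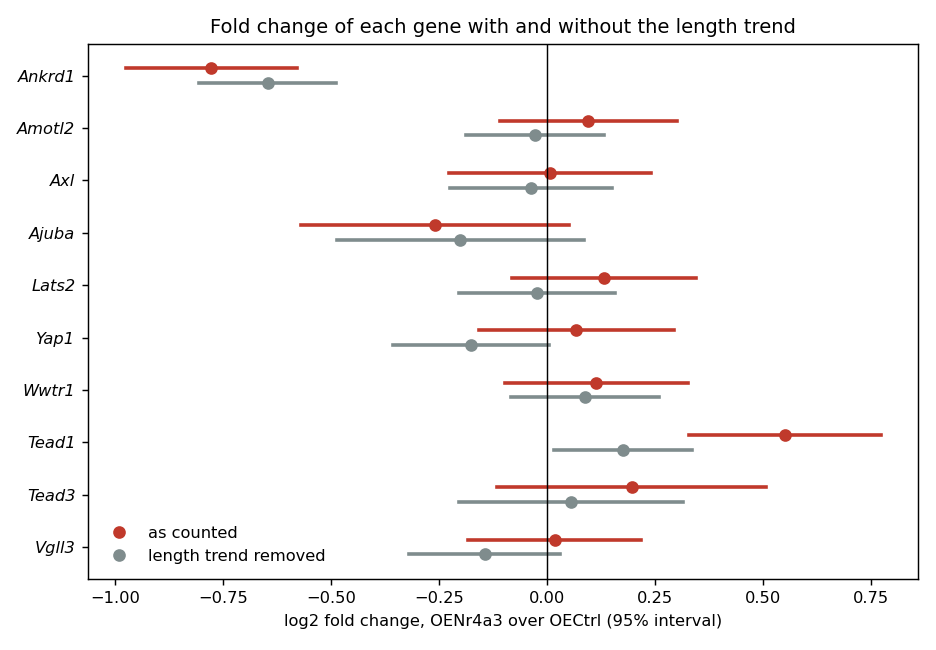
Log2 fold change of OENr4a3 over OECtrl for the 10 genes, as counted (red) and with the length trend removed (grey), with 95% intervals as lines. Ankrd1 lies left of 0 both ways (-0.78 and -0.65), while Tead1 moves from 0.55 to 0.18 when the trend is removed. The other 8 intervals as counted span 0.

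Compared per kilobase of exon, where levels of different genes can be set side by side, the 10 genes spanned a wide range. Ankrd1 stood first at 283 and 299 CPM per kb in OENr4a3 and 487 and 511 in OECtrl. Axl followed at 117 and 124 CPM per kb in OENr4a3 and 130 and 110 in OECtrl, then Amotl2 at 94.0 and 95.5 in OENr4a3 and 92.0 and 85.4 in OECtrl, and Vgll3 at 72.3 and 70.6 in OENr4a3 and 69.7 and 71.5 in OECtrl. None of these 4 overlapped its neighbour in any library. Tead1, at 63.5 and 63.8 CPM per kb in OENr4a3 and 46.5 and 40.4 in OECtrl, lay above Wwtr1 in OENr4a3 (44.4 and 46.0), whereas in OECtrl it overlapped Wwtr1 (41.6 and 42.0). Levels per kilobase still carry the length trend, and Tead1 (13570 exonic bases) is longer than Wwtr1 (4779). With the trend removed, the log2 fold changes were 0.18 for Tead1 and 0.09 for Wwtr1, neither called. Lats2 averaged 24.2 CPM per kb in OENr4a3 and 22.1 in OECtrl, and Yap1 averaged 20.7 in OENr4a3 and 19.7 in OECtrl, close to each other in both groups. Ajuba, at 8.97 CPM per kb in OENr4a3 and 10.7 in OECtrl, and Tead3, at 4.27 in OENr4a3 and 3.74 in OECtrl, were the lowest. The group means stood in the same order in both groups.

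**Figure D3:**
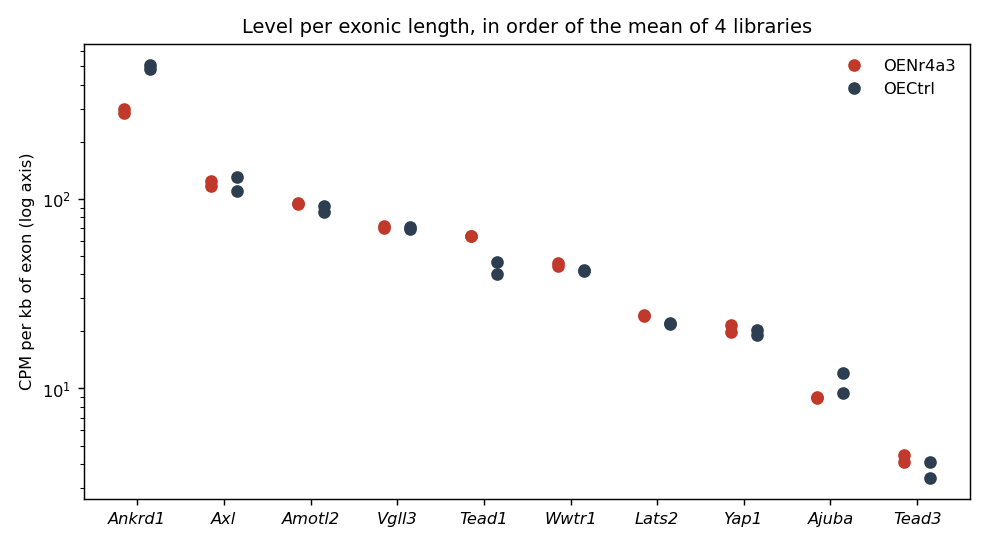
Level of each gene in CPM per kilobase of exon on a log axis, in order of the mean over 4 libraries, with the 2 OENr4a3 libraries in red to the left of the 2 OECtrl libraries in dark. Ankrd1 is the highest in all 4 libraries, from 283 to 511 CPM per kb, and Tead3 the lowest, from 3.36 to 4.46.

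Other targets of YAP and TAZ did not move as one group. Of the 22 genes of a commonly used target signature, which includes Ankrd1, Amotl2, Axl and Lats2, 7 rose, 3 fell and 12 were not called, with a median log2 fold change of 0.27. Over all tested genes 12.0% rose and 11.0% fell, with a median of -0.01. The genes that fell were Ankrd1, Ccn1 and Ccn2. Ccn2, which encodes the secreted matricellular protein CTGF, stood at 2066 and 2024 CPM in OENr4a3 and 2553 and 2893 CPM in OECtrl, and Ccn1, which encodes its relative CYR61, at 833 and 781 CPM in OENr4a3 and 1068 and 1134 CPM in OECtrl. For both genes the OENr4a3 libraries lay below the OECtrl libraries. Ccn2 fell by 0.41 on the log2 scale (adjusted p = 0.0142) and Ccn1 by 0.45 (adjusted p = 0.0105), each by less than Ankrd1. Both calls were lost without OENr4a3 replicate 1 (adjusted p = 0.178 for Ccn2 and 0.142 for Ccn1) and without OENr4a3 replicate 2 (0.230 for Ccn2 and 0.267 for Ccn1). With the length trend removed Ccn2 still fell (-0.28, adjusted p = 0.0182), while Ccn1 stood at -0.22 (adjusted p = 0.0590). Ccn2 shares 665 exonic bases with the transcript Gm15270 on the opposite strand.

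The targets that rose were Nt5e, Fjx1, Arhgef17, Nuak2, Asap1, Crim1 and Igfbp3. Nt5e encodes CD73, the cell-surface enzyme that makes adenosine, and stood at 75.3 and 66.9 CPM in OENr4a3 and 23.7 and 29.4 CPM in OECtrl. It had the largest rise of the signature (2.67-fold, log2 fold change 1.42 ± 0.134 SE, adjusted p = 0.000294) and kept its call in all 14 other settings. Arhgef17, a guanine nucleotide exchange factor for RhoA, stood at 203 and 208 CPM in OENr4a3 and 150 and 102 CPM in OECtrl (0.70, adjusted p = 0.0155). Fjx1, the relative of the fly Golgi kinase four-jointed, stood at 9.91 and 11.9 CPM in OENr4a3 and 5.40 and 6.82 CPM in OECtrl (0.83, adjusted p = 0.0163). In each of these 3 genes the groups did not overlap. Igfbp3, an insulin-like growth factor binding protein, stood at 1185 and 1211 CPM in OENr4a3 and 905.4 and 961.9 CPM in OECtrl (0.36, adjusted p = 0.0201), again without overlap. Nuak2 (0.43), Asap1 (0.39) and Crim1 (0.37) rose by similar amounts. The calls of Igfbp3, Nuak2, Asap1 and Crim1 were lost when either OENr4a3 library was left out, with adjusted p of 0.254, 0.413, 0.279 and 0.397 without OENr4a3 replicate 1 and 0.316, 0.157, 0.282 and 0.208 without OENr4a3 replicate 2. That of Fjx1 was lost without OENr4a3 replicate 2 (adjusted p = 0.0976). With the length trend removed 7 of the 22 rose, with Gadd45a (0.53) called in place of Asap1 (0.22, adjusted p = 0.10), and 3 fell, with Tgfb2 (-0.33) called in place of Ccn1, and the median was 0.01. In that fit 10.1% of all tested genes rose and 10.2% fell.

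**Figure D4:**
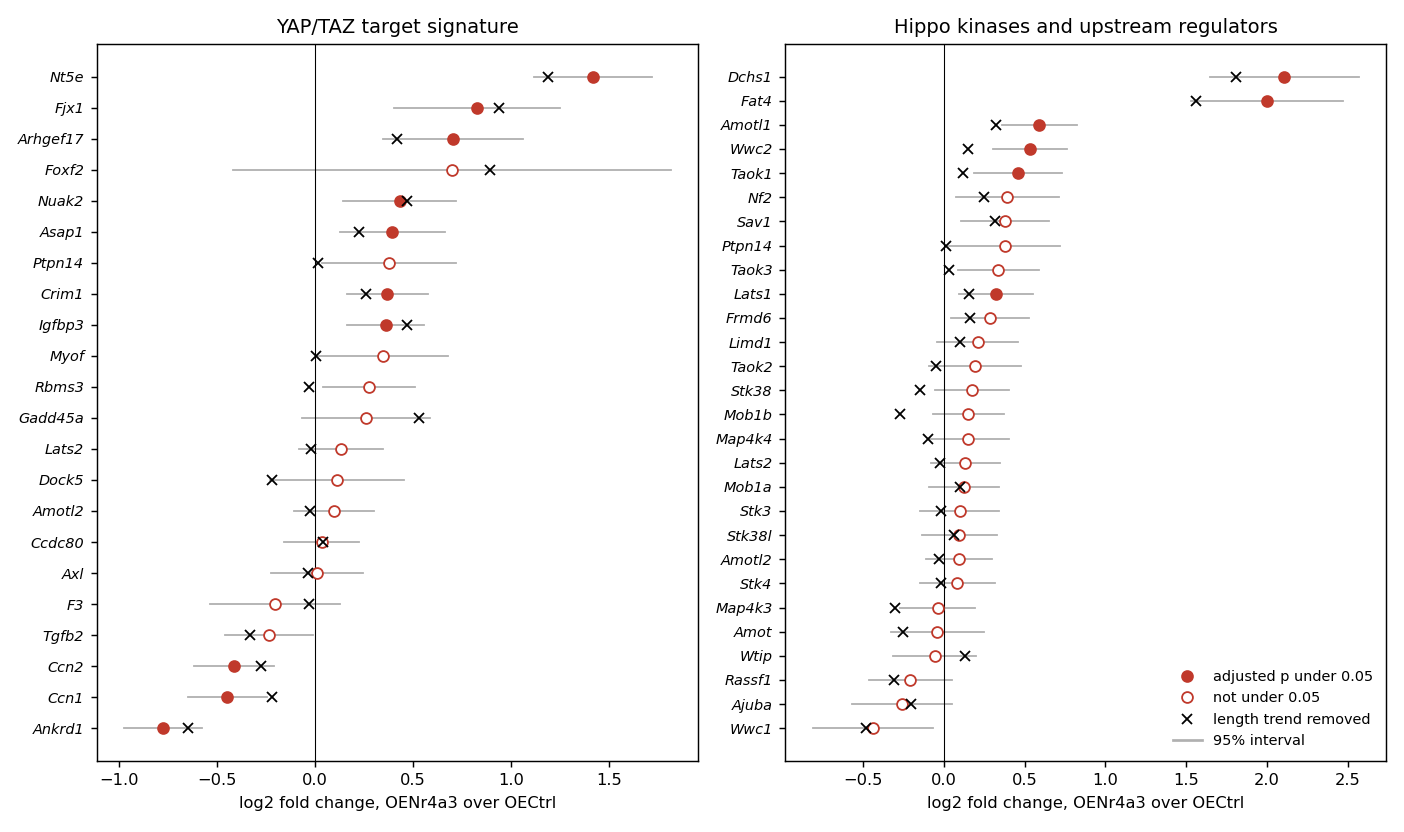
Log2 fold changes of OENr4a3 over OECtrl for the 22 genes of the YAP/TAZ target signature (left) and the 28 Hippo kinases and upstream regulators (right), with 95% intervals. Filled points are called at an adjusted p under 0.05, open points are not, and crosses give the value with the length trend removed. Ankrd1, Ccn1 and Ccn2 are the filled points left of 0 in the target panel, and Dchs1 and Fat4 stand far to the right in the other.

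Among the 28 Hippo kinases and upstream regulators, which include Lats2, Amotl2 and Ajuba, 6 rose and 0 fell, with a median log2 fold change of 0.16. Of all tested genes 12.0% rose and 11.0% fell, but the list's median exonic length, 7134 bases, falls in the longest of the 4 length groups, where 28.6% rose. The largest rises were those of Dchs1 and Fat4, the giant protocadherins that bind each other across cell contacts and feed into the Hippo pathway in flies. Dchs1 stood at 22.4 and 22.0 CPM in OENr4a3 and 6.44 and 3.95 CPM in OECtrl (4.31-fold, log2 fold change 2.11 ± 0.206 SE, adjusted p = 0.000318). Fat4 stood at 41.8 and 48.7 CPM in OENr4a3 and 14.3 and 8.50 CPM in OECtrl (4.0-fold, 2.00 ± 0.209 SE, adjusted p = 0.000432). Both genes separated the groups without overlap and kept their calls in all 14 other settings, at 1.81 for Dchs1 and 1.56 for Fat4 with the length trend removed. Fat4 shares 1209 exonic bases with the antisense C230034O21Rik and 281 with Gm43539, and Dchs1 shares 648 with Gm15645 on the opposite strand.

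The other regulators that rose did so by less. Amotl1, the angiomotin-family relative of Amotl2, stood at 227 and 236 CPM in OENr4a3 and 163 and 145 CPM in OECtrl (0.59, adjusted p = 0.00597). Wwc2, a relative of the scaffold KIBRA, stood at 488 and 468 CPM in OENr4a3 and 353 and 308 CPM in OECtrl (0.53, adjusted p = 0.00879). In both genes the groups did not overlap. Taok1, an upstream kinase (0.46, adjusted p = 0.0261), and Lats1, the other LATS kinase (0.33, adjusted p = 0.0471), also rose. These 4 calls were lost when either OENr4a3 library was left out, with adjusted p of 0.0516 and 0.0860 for Amotl1, 0.129 and 0.0769 for Wwc2, 0.248 and 0.148 for Taok1, and 0.389 and 0.426 for Lats1 (without OENr4a3 replicate 1 and replicate 2). In all, the call of Lats1 was lost under 9 of the 14 other settings, among them the replicate block (adjusted p = 0.0864), and that of Taok1 under 6. Wwc2 stood at 0.15, Lats1 at 0.16 and Taok1 at 0.12 once the length trend was removed, none of them called. These genes are long, and with the length trend removed the list had 4 risen (Fat4, Dchs1, Amotl1 and the scaffold Sav1 at 0.32) and 1 fallen, the kinase Map4k3 (-0.30, adjusted p = 0.0206), with a median of 0.02. Beside these stand the 10.1% of all tested genes that rose and the 10.2% that fell in that fit.

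**Figure D5:**
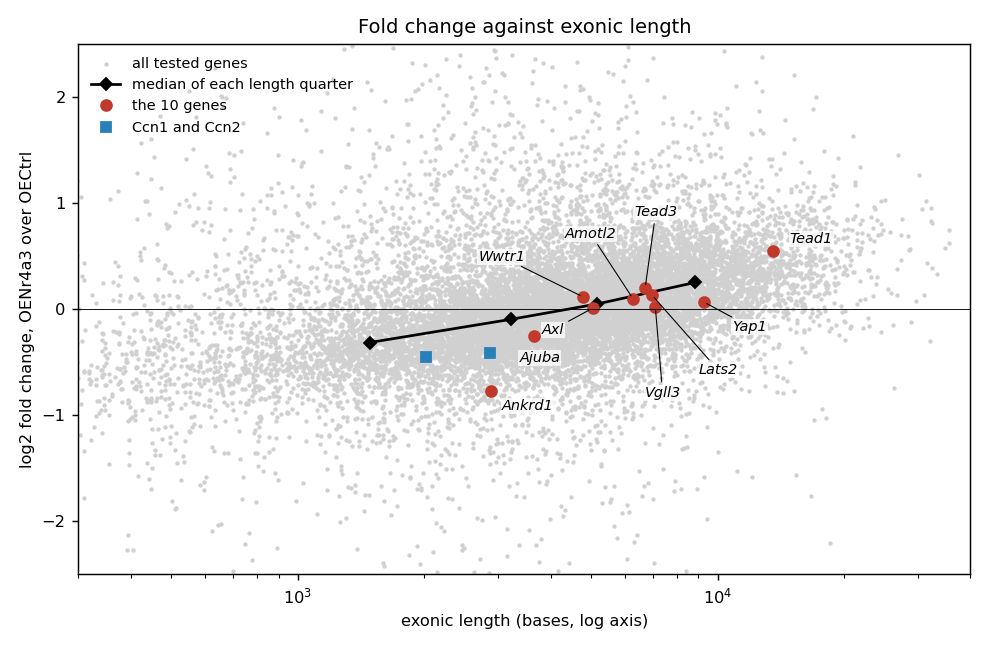
Log2 fold change of OENr4a3 over OECtrl against exonic length on a log axis, for all 15029 tested genes (grey, vertical axis limited to 2.5 either way), the 10 genes (red) and Ccn1 and Ccn2 (blue squares). Black diamonds are the medians of 4 equal groups of genes by length, which run from -0.32 to 0.25. Ankrd1 lies well below the line of medians at its length, whereas Tead1, at 13570 bases, lies nearer to it.

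The list of 8 muscle ankyrin repeat genes and known partners of Ankrd1 includes Ankrd1 itself, and 6 of the 8 could be tested. Of these 2 fell (Ankrd1 and Casq2) and 1 rose (Ttn), beside 11.0% and 12.0% of all tested genes. Without Ankrd1, 1 of 5 tested genes fell and 1 rose. Removal of the length trend left 3 fallen (Ankrd1, Casq2 and Palld) and 0 risen, beside 10.2% and 10.1% of all tested genes in that fit. Casq2, the calcium-binding calsequestrin of the sarcoplasmic reticulum and a partner of the Ankrd1 protein, stood at 5.45 and 5.67 CPM in OENr4a3 and 11.8 and 8.44 CPM in OECtrl. The groups did not overlap and Casq2 fell (-0.85, adjusted p = 0.0192). Titin, from Ttn, had 34 and 38 reads in OENr4a3 and 11 and 8 in OECtrl and rose (1.69, adjusted p = 0.0220). At 117334 exonic bases it is among the longest genes, and its call was lost under 7 of the 14 other settings, among them removal of the length trend (0.66, adjusted p = 0.295). Ankrd23, a relative of Ankrd1, averaged 2.13 CPM in OENr4a3 and 1.81 CPM in OECtrl and was not called, nor was Ybx1. Palld, which encodes the actin-associated protein palladin, averaged 161 CPM in OENr4a3 and 164 CPM in OECtrl (-0.02, adjusted p = 0.879), and it fell with the length trend removed (-0.31, adjusted p = 0.0289). Ankrd2, the remaining relative, and Mypn, which encodes myopalladin, were too low to test, with at most 9 reads in a library.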

How the data were processed

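Per the labels' protocols, TRIzol RNA from the cultured fibroblasts went through depletion of ribosomal RNA into stranded, paired-read libraries, although the molecule is labelled polyA RNA. The authors deposited whole-number counts per Ensembl gene for 4 libraries, per the file headers, with each gene's exonic length. The table's 4 per-sample FPKM columns were not used. The submitters' processing notes name the build mm10 and the tools SAMtools, Trimmomatic 0.36, featureCounts and Subread 1.5.1. They name no aligner by role, no annotation release and no strand setting. Start and end matched GENCODE M21 (GRCm38) for 1494 of 52083 shared identifiers only, so coordinates come from M21 by Ensembl identifier.

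Samples were grouped by title, 2 libraries a group. In R 4.3.3, genes passing filterByExpr were scaled by TMM and compared by the quasi-likelihood test of edgeR 4.0.16 (two-sided, no replicate block, Benjamini-Hochberg, adjusted p under 0.05), with SE derived from the F statistic. CPM use TMM-scaled library sizes. The biological coefficient of variation was 0.0955. Replicates differed by more than sampling noise (chi-square per degree of freedom 2.55 in OENr4a3 and 15.5 in OECtrl), so all 4 libraries were kept as separate samples. The scripts were tested on simulated data. Alternatives were DESeq2 1.42.0, limma-voom (limma 3.58.1), DESeq2 size factors or upper-quartile factors, no filter, 1 CPM in 2 libraries, an adjusted p under 0.01, each library left out, a replicate block, and removal, library by library, of a lowess trend (span 0.3) of log2 CPM (prior count 2) on exonic length, alone and with the block.

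The members, lists, settings and naming rule were chosen with earlier results of these data known. The rule takes all 10 members in full, every called gene of the pathway lists, up to 4 others per list by smallest p with values in each library, Ccn1 and Ccn2, and the 3 genes most like Ankrd1. Gadd45a, Sav1, Map4k3, Tgfb2, Gas6, Myh6, Myh7 and the genes not called were named after their values were seen. Promoter windows and sequences are from RefSeq (GRCm38.p6), where 9 of the 10 members matched.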

Additional observations from a re-analysis of the deposited data

How the results depend on the processing

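The fall of Ankrd1 and the rises of Nt5e, Fat4 and Dchs1 kept their direction and stayed past the threshold in all 14 other settings. No called value of the 10 genes had a sign opposite to that in the main fit. Over the 14 other settings the sign did vary for 5 genes not called in the main fit. These were Amotl2 (-0.03 to 0.15), Axl (-0.10 to 0.13), Lats2 (-0.02 to 0.15), Yap1 (-0.18 to 0.14) and Vgll3 (-0.14 to 0.04). The main count was 3457 genes called, against 1878 without the filter on low counts and 911 at an adjusted p under 0.01, where 1 target of YAP/TAZ rose and 1 fell. With the length trend removed, alone or with the replicate block, 0 of the 10 genes rose and 1 Hippo regulator fell, and Tead1 stood at 0.18. Leaving out each library in turn gave 1203 to 7133 genes called, 0 to 3 of the 10 genes risen and 1 to 2 fallen, 2 to 12 targets risen and 1 to 5 fallen, and 2 to 17 Hippo regulators risen and 0 to 2 fallen. The most genes called and the most rises came without OECtrl replicate 1, the fewest of both without an OENr4a3 library. In these fits a lone library takes its spread from the other group, and the cause of these changes was not tested. The correlation of the deviations of same-numbered libraries was -0.078, so the numbers were not taken to pair them. With the replicate block 3851 genes were called, and 1 of the 10 genes rose and 1 fell. Upper-quartile scaling made 43.9% of calls rises, against 52.1%. Ttn, Tead4 and the cardiomyocyte markers other than Tnnt2 rest on few reads (8 to 38 a library for Ttn).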
